A study of Mus musculus with 6 samples.

Results

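The genes described here are the 10 members of the inhibin, activin and anti-Müllerian hormone (AMH) signalling system, namely Inha, Inhba, Inhbb, Amh, Amhr2, Fst, Fstl3, Acvr1b, Acvr2a and Acvr2b. They were taken by gene symbol from the authors' deposited table of 55331 genes, and each symbol matched 1 row. The samples were whole testes of mice aged 35 days, from which polyadenylated RNA was sequenced in 6 libraries. The 3 Ptbp1_cKO libraries came from Ptbp1fl/fl; Amh-Cre+/- mice, in which both alleles of Ptbp1 were floxed and a Cre recombinase named for the Amh gene, which Sertoli cells express, was carried in a single dose. The 3 control libraries came from Ptbp1fl/fl mice, which carried the same floxed alleles and no Cre. All mice were of mixed strain. PTBP1 is an RNA-binding protein that regulates splicing, and the study asked what it does in Sertoli cells. Amh-Cre mice with unfloxed Ptbp1 are not among the groups, so the deletion and the transgene cannot be told apart. Whether the libraries of a group stem from different animals is not given in the labels.

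Inhibins and activins are dimers built from shared subunits. An alpha subunit joined to a beta subunit gives an inhibin, and a pair of beta subunits gives an activin. Activin binds a type II receptor, which recruits a type I receptor that phosphorylates SMAD2 and SMAD3, whereas inhibin occupies the type II receptor together with the co-receptor betaglycan and blocks activin. Follistatin and its relative FSTL3 bind activin outside the cell. In the testis Sertoli cells make inhibin B, which lowers the release of follicle-stimulating hormone from the pituitary, and the fetal and immature Sertoli cell makes AMH, which acts through its own type II receptor AMHR2 on the Müllerian duct and on Leydig cells. AMH output of the Sertoli cell falls at puberty.

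Promoter windows are shown for the alpha subunit gene Inha and the AMH receptor gene Amhr2, because these genes had the smallest p-values of the group, and for the beta subunit gene Inhbb, whose group values lay close together. Each window covers 250 bases before and 50 from the annotated start and comes from RefSeq on GRCm38.p6, the same build as mm10. Capitals mark the letters of a searched motif on either strand.
Amhr2: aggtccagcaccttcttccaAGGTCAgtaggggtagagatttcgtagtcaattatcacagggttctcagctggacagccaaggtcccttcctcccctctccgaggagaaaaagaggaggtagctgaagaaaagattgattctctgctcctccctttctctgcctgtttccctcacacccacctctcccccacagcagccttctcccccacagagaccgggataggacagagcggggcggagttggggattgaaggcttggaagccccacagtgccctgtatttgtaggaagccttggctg
Inha: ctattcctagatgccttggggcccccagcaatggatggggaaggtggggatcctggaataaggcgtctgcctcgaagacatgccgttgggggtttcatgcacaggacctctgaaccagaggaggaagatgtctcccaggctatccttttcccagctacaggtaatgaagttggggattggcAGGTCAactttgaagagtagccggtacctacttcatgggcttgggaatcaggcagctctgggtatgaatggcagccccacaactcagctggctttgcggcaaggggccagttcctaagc
Inhbb: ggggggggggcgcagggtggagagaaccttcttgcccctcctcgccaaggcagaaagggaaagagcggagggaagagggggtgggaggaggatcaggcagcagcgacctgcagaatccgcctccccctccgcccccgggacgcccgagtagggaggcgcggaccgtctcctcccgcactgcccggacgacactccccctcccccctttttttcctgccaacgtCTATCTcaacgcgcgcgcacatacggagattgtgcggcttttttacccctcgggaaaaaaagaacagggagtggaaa
The Amhr2 window lies on the plus strand at chr15:102445117-102445416. Its capitals are AGGTCA, a short site that nuclear receptors such as NR5A1 bind, 230 bases before the start. The Inha window lies on the plus strand at chr1:75507359-75507658 and holds AGGTCA 69 bases before the RefSeq start. That start lies 532 bases inside the gene as GENCODE annotates it, 160 bases of the window are coding there, and the motif falls in an intron, so the window is not the promoter of the GENCODE transcript. The Inhbb window lies on the minus strand at chr1:119422199-119422498 and holds the motif of GATA factors, spelled AGATAG on the strand not shown, 27 bases before the start.

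Of the 10 genes, 8 had a window, and Amh and Fst had none. AGGTCA occurred in 3 of the 8 windows, those of Inha, Amhr2 and Fstl3, against 16.3% of all 32851 windows in the RefSeq table. AGATAG occurred in 1 of the 8, against 8.95% of all windows. CAGACA, a SMAD motif, occurred in 1, that of Fstl3, against 21% of all windows. AACAAT, a SOX motif, was in none of the 8 and in 10.7% of all windows, and TGACGT, the core of the cAMP response element, was in none of the 8 and in 7.51% of all windows. The windows of Inhba, Acvr1b, Acvr2a and Acvr2b held none of these letters. A match describes the letters and does not show that a factor binds.

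The deposited table gives 1 FPKM value per group, which the authors obtained from the 3 libraries together, so no SD can be given. FPKM is the number of fragments scaled to transcript length and sequencing depth. Low FPKM values fell on 3 steps per group. Taking a group value as the average of its libraries, the steps correspond to between 65300000 and 72200000 fragments per library in Ptbp1_cKO and between 66400000 and 86900000 in control. The targeted gene Ptbp1 stood at 46.7 FPKM in Ptbp1_cKO and 49.97 FPKM in control, with q = 0.999 by Cuffdiff's test in the authors' deposited table. Cells other than Sertoli cells make up most of a testis, so this level does not check the labels.

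None of the 10 genes changed past the threshold. Cuffdiff, the authors' test program, tested 9 of them and left Inhba untested. Of the 9, 0 had q under 0.05 in the authors' deposited table, where 256 of 22048 tested genes, or 1.16%, passed. At an unadjusted p under 0.05 the count was 2 of 9, both with the higher level in Ptbp1_cKO, namely Inha and Amhr2, against 8.98% of all tested genes in either direction and 4.38% with the higher level in Ptbp1_cKO. At q under 0.1 the count was again 0, against 1.91%. With p computed from the deposited statistic under a normal distribution, 0 of the 9 passed, as against 0.0863% of genes with a statistic. The level was higher in Ptbp1_cKO for 6 of the 9 tested genes and lower for 3, while 50.9% of all tested genes were higher. On the scale of log2(FPKM + 1), the median difference was 0.053 over the 10 genes, Ptbp1_cKO minus control, and 0.0045 over the 23462 rows that reached 0.1 FPKM in either group.

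**Figure D1:**
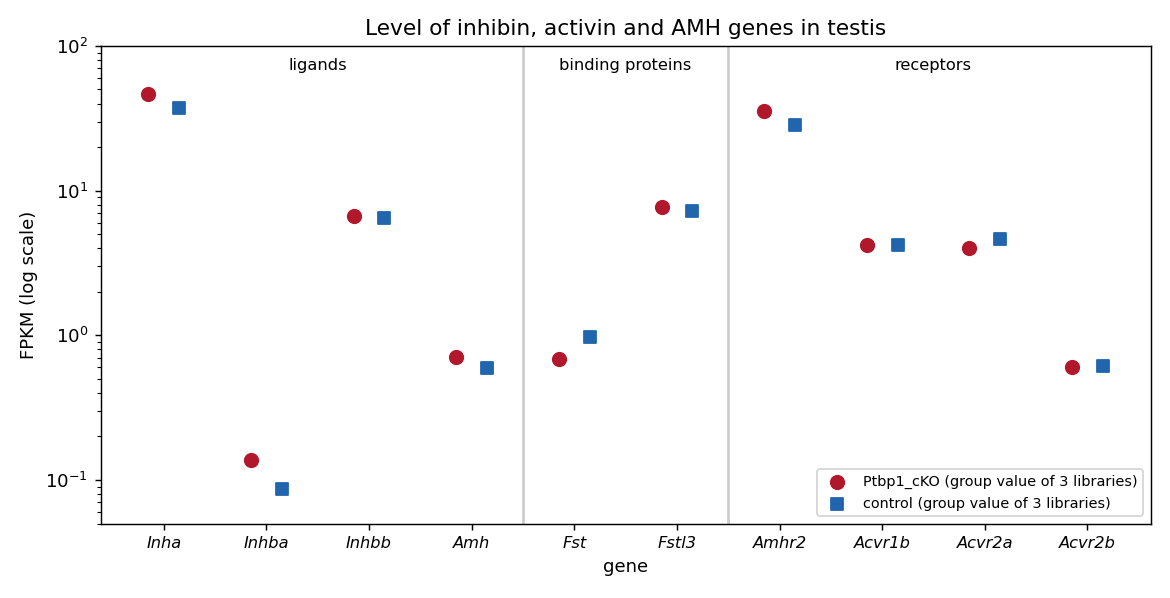
Group FPKM of the 10 genes on a log scale, Ptbp1_cKO as circles left of control as squares, with genes ordered by role. Levels ran from 0.138 to 46.8 FPKM in Ptbp1_cKO and from 0.0866 to 37.4 FPKM in control, with Inha at the top and Inhba at the bottom of both groups.

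Among the ligands, the alpha subunit gene stood far above the beta subunit genes. Inha (ENSMUSG00000032968.4, chromosome 1, 75507077 to 75510366, mm10), which encodes the subunit found in inhibins and absent from activins, had 46.8 FPKM in Ptbp1_cKO and 37.4 FPKM in control. Its level in Ptbp1_cKO was 1.25 times that in control, a log2 fold change of 0.33 with p = 0.0031 and q = 0.136 by Cuffdiff's test in the authors' deposited table. That p was matched or undercut by 504 tested genes, or 2.29% of them. If the deposited statistic is the log ratio divided by its standard error, the error of the log2 fold change was 0.20 and the 95% interval ran from -0.059 to 0.71, which includes no difference. The normal p from that statistic was 0.0971, far above the deposited p of 0.0031 from Cuffdiff's test. The deposited p thus did not follow a normal distribution of the statistic. The interval and the deposited p therefore disagree on whether a log2 fold change of 0 lies within the error.

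Inhbb (chromosome 1, 119415465 to 119422248), the beta subunit of inhibin B and activin B, had 6.64 FPKM in Ptbp1_cKO and 6.43 FPKM in control. Its log2 fold change of 0.046 had q = 0.999 by Cuffdiff's test in the authors' deposited table. The implied interval, under the same normal assumption, ran from -0.37 to 0.46, or from 0.776 to 1.37 times the control level. Inhba (chromosome 13, 16011851 to 16031621), the beta subunit of inhibin A and activin A, had 0.138 FPKM in Ptbp1_cKO and 0.0866 FPKM in control and carries no test. Its higher value in Ptbp1_cKO, 1.59 times that in control, rested on about 172 fragments in Ptbp1_cKO and 119 in control. These were counted over the longest coding transcript, of 6390 bases. Counting alone then gave the log2 fold change of 0.67 an error of 0.17. GENCODE also lists a coding transcript of 1529 bases, for which the estimated fragments would be fewer and the counting error larger. On the FPKM scale Inhbb made up 98.0% of the sum of both beta subunit genes in Ptbp1_cKO and 98.7% in control.

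The ratio of Inha to both beta subunit genes together was 6.91 in Ptbp1_cKO and 5.74 in control on the FPKM scale, which corrects for transcript length. No spread between libraries is known for this ratio and its difference was not tested. Inhba overlaps B230303A05Rik, a pseudogene on the opposite strand that had 2.06 FPKM in Ptbp1_cKO and 1.98 FPKM in control. Their annotated exons share 0 bases.

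Amh (ENSMUSG00000035262.5, chromosome 10, 80805243 to 80807648), the hormone whose gene names the Cre transgene, was low in both groups, at 0.708 FPKM in Ptbp1_cKO and 0.598 FPKM in control. The log2 fold change was 0.24 with q = 0.978 by Cuffdiff's test in the authors' deposited table. The implied interval, from -0.60 to 1.08, spanned 0.662 to 2.12 times the control level. About 202 fragments in Ptbp1_cKO and 188 in control lay behind these values, and counting alone gave the log2 fold change an error of 0.15. Sf3a2, a splicing factor gene on the same strand, ends 318 bases before Amh and had 38.8 FPKM in Ptbp1_cKO and 36.2 FPKM in control. Whether reads that run past the end of Sf3a2, or transcripts of the transgene, contribute to the Amh value was not tested.

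The receptor for AMH was abundant where its ligand was scarce. Amhr2 (ENSMUSG00000023047.11, chromosome 15, 102445367 to 102454633), the type II receptor that binds AMH, had 35.5 FPKM in Ptbp1_cKO and 28.5 FPKM in control. The log2 fold change of 0.32 had p = 0.0044 and q = 0.164 by Cuffdiff's test in the authors' deposited table. Its implied error was 0.20, with an interval from -0.084 to 0.72, and the normal p was 0.121, again far above the deposited p. On the FPKM scale Amhr2 exceeded Amh by 50.1 times in Ptbp1_cKO and 47.6 times in control. Amhr2 and Inha thus had nearly the same fold change, with the higher level in Inha in both groups, and both are known from Sertoli and Leydig cells.

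**Figure D2:**
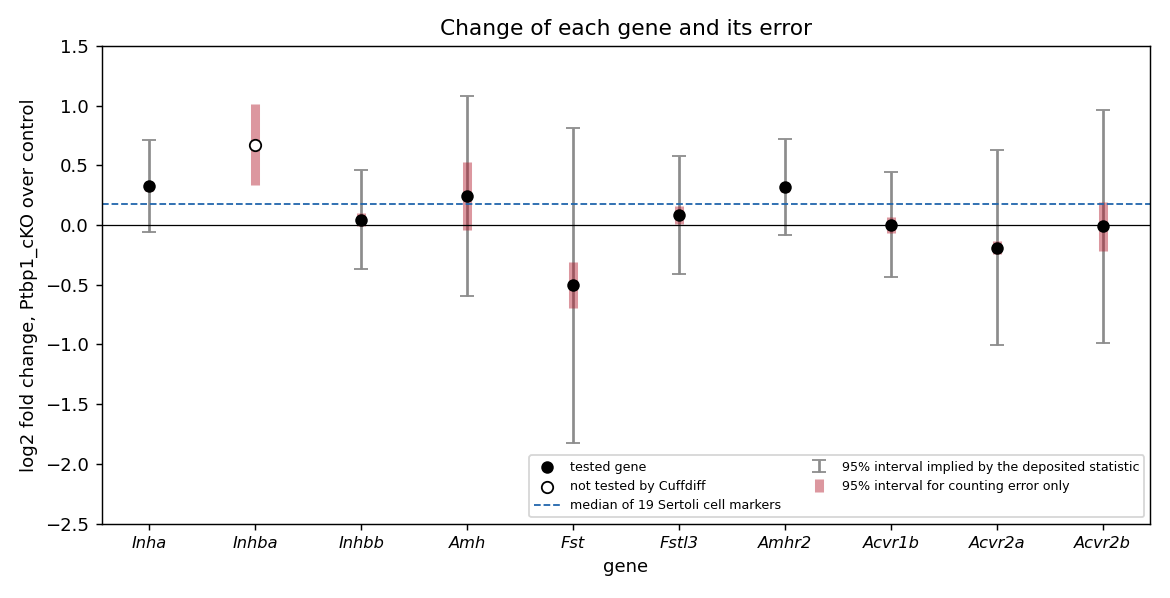
Log2 fold change of each gene, Ptbp1_cKO over control, with the 95% interval implied by the deposited statistic (thin grey) and the 95% interval for counting error alone (wide red), and the median of 19 Sertoli cell markers as a dashed line at 0.17. The thin interval of each of the 9 tested genes includes 0, and for Inha and Amhr2 it starts at -0.059 and -0.084. The thin interval assumes a normal distribution of the statistic, which the smaller deposited p-values of Inha and Amhr2 do not follow. The red interval is for the longest coding transcript, and a shorter one would widen it.

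The activin receptors had moderate to low levels with no call. Acvr1b (chromosome 15, 101174067 to 101213684), the type I receptor for activin also called ALK4, had 4.23 FPKM in both groups and a log2 fold change of 0.0024 with q = 0.999 by Cuffdiff's test in the authors' deposited table. Its implied interval ran from 0.739 to 1.36 times the control level. Acvr2a (chromosome 2, 48814109 to 48903269), a type II receptor for activin, had 4.03 FPKM in Ptbp1_cKO and 4.59 FPKM in control, a log2 fold change of -0.19 with q = 0.999 by Cuffdiff's test in the authors' deposited table. It shares 446 exonic bases with Orc4 on the opposite strand, which had 12.3 FPKM in Ptbp1_cKO and 12.2 FPKM in control, so reads from the shared stretch are uncertain unless strand was used in counting.

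Acvr2b (chromosome 9, 119402118 to 119434995), the other type II activin receptor, had 0.607 FPKM in Ptbp1_cKO and 0.612 FPKM in control, with a log2 fold change of -0.011 and q = 0.999 by Cuffdiff's test in the authors' deposited table. Acvr2a was the more abundant of the pair, at 6.64 times Acvr2b in Ptbp1_cKO and 7.51 times in control on the FPKM scale. The implied errors of both log2 fold changes were wide, 0.42 for Acvr2a and 0.50 for Acvr2b, against counting errors of 0.029 and 0.10, so counting made up a small part of the error that the deposited statistic carries for these receptors.

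The activin-binding proteins differed in level from each other. Fst (ENSMUSG00000021765.9, chromosome 13, 114452290 to 114458951), which encodes follistatin, had 0.684 FPKM in Ptbp1_cKO and 0.970 FPKM in control, 0.706 times the control level. This was the lowest fold change among the 9 tested genes, a log2 fold change of -0.50 with p = 0.183 and q = 0.849 by Cuffdiff's test in the authors' deposited table. Counting error alone was 0.098, from about 358 fragments in Ptbp1_cKO and 557 in control, but the implied error was 0.67 and the interval reached from 0.283 to 1.76 times the control level. GENCODE gives Fst 4 coding transcripts of different length, and a gene value sums over them. Fst shares 115 exonic bases with Gm47040 on the opposite strand, which had 0.0736 FPKM in Ptbp1_cKO and was listed at 0 in control.

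Fstl3 (chromosome 10, 79777272 to 79782630), a follistatin relative that also binds activin but lacks the heparin-binding region, had 7.72 FPKM in Ptbp1_cKO and 7.28 FPKM in control. Its log2 fold change of 0.084 had q = 0.999 by Cuffdiff's test in the authors' deposited table. It shares 1157 exonic bases with Prss57 on the opposite strand, which had 0.0021 FPKM in Ptbp1_cKO and 0.0041 FPKM in control. Fstl3 exceeded Fst by 11.3 times in Ptbp1_cKO and 7.51 times in control, a difference for which no test could be made. Fstl3 lies 71796 bases before Ptbp1 on chromosome 10, and Amh lies 940471 bases after it, so both share the floxed chromosome with the targeted gene. Neither passed the threshold.

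In order of level, Inha, Amhr2, Fstl3 and Inhbb held the first 4 places and Inhba the last in both groups. Acvr1b and Acvr2a exchanged places 5 and 6. Places 7, 8 and 9 went to Amh, Fst and Acvr2b in Ptbp1_cKO, whereas in control the order was Fst, Acvr2b and Amh. Since no value per library was used, whether neighbours in this order differ beyond the spread between libraries is not known. Among all tested genes, Inha lay above 87.4% in Ptbp1_cKO and 84.6% in control, and Amh above 24.6% in Ptbp1_cKO and 22.4% in control.

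The genes with the pair of group values closest to that of Inha, which had the smallest p of the 10, were Mark2, Fam53c and Dynlrb1. Likeness was the distance of log2 FPKM over the 2 group values. Mark2, a kinase of cell polarity, had 45.6 FPKM in Ptbp1_cKO and 37.8 FPKM in control at a distance of 0.044. Fam53c had 46.2 FPKM in Ptbp1_cKO and 36.3 FPKM in control at a distance of 0.046. Dynlrb1, a dynein light chain, had 48.9 FPKM in Ptbp1_cKO and 37.6 FPKM in control at a distance of 0.062. With only 2 values per gene, this likeness says little beyond a shared level and fold.

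**Figure D3:**
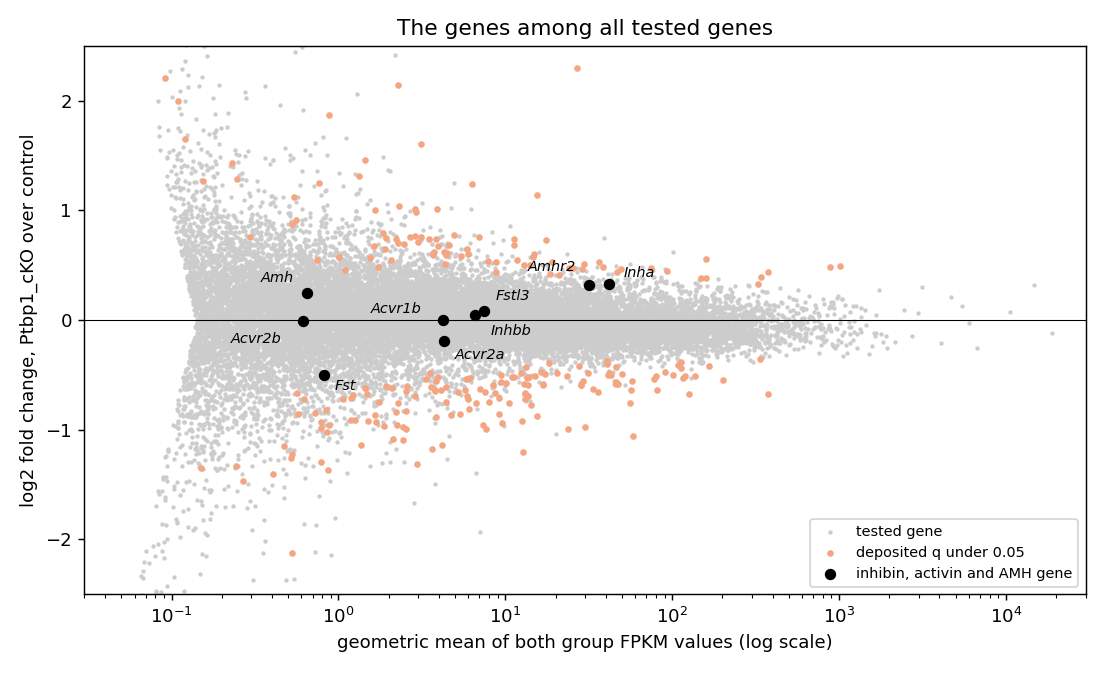
Log2 fold change against the geometric mean of both group FPKM values for tested genes above 0 in both groups, with genes at q under 0.05 in orange and the 9 tested genes of the system in black; 70 genes lie outside the plotted range. The black points lie within the grey cloud, with Inha and Amhr2 at its upper side and Fst below 0.

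The rest of the pathway gave no call either. Over 6 lists with 72 genes, 57 were tested and 0 passed in either direction, against 1.16% of all tested genes; 7 higher and 2 lower had an unadjusted p under 0.05 by Cuffdiff's test in the authors' deposited table, where 4.38% of all tested genes were higher and 4.59% lower at that p. Of 11 tested receptors and co-receptors, 8 had the higher value in Ptbp1_cKO. The smallest p was that of Tgfbr3, which encodes betaglycan, the co-receptor of inhibin. It had 3.85 FPKM in Ptbp1_cKO and 3.09 FPKM in control, a log2 fold change of 0.31 with p = 0.0186 and q = 0.360 by Cuffdiff's test in the authors' deposited table. Betaglycan mRNA, Inha and Amhr2 had folds of about 1.24 to 1.25 and a q above the threshold. They were set side by side for their small p-values, and a shared change was not tested. In the receptor list, 2 genes were higher and 1 lower at an unadjusted p under 0.05. The lower gene was Acvr1, at 1.86 FPKM in Ptbp1_cKO and 2.38 FPKM in control (p = 0.0316, q = 0.450 by Cuffdiff's test in the authors' deposited table).

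Of 10 tested ligands of the family, 9 had the higher value in Ptbp1_cKO, with a median log2 fold change of 0.20. The smallest p was that of Bmp7, a bone morphogenetic protein, which went the other way at 0.758 FPKM in Ptbp1_cKO and 1.04 FPKM in control (p = 0.0131, q = 0.303 by Cuffdiff's test in the authors' deposited table). Only 3 of 8 further antagonists were tested, and Chrd, which encodes the bone morphogenetic protein antagonist chordin, had the smallest p, at 0.166 FPKM in Ptbp1_cKO and 0.132 FPKM in control (q = 0.999 by Cuffdiff's test in the authors' deposited table). The 15 SMAD proteins and partners were all tested, with 8 higher, 7 lower and a median log2 fold change of 0.048. Smurf2, a ubiquitin ligase for SMAD proteins and receptors, had the smallest p there, at 28.4 FPKM in Ptbp1_cKO and 31.6 FPKM in control (q = 0.844 by Cuffdiff's test in the authors' deposited table).

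The signal carriers of activin were chosen for their role after their values were seen. Smad2 had 9.60 FPKM in Ptbp1_cKO and 9.16 FPKM in control, Smad3 had 2.03 FPKM in Ptbp1_cKO and 2.599 FPKM in control, and the shared partner Smad4 had 7.53 FPKM in Ptbp1_cKO and 7.20 FPKM in control. None of these passed the threshold. Among 5 precursor convertases, which cut the ligand precursors, Pcsk5 had the smallest p, at 0.909 FPKM in Ptbp1_cKO and 0.703 FPKM in control (p = 0.0313, q = 0.450 by Cuffdiff's test in the authors' deposited table).

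Of 13 tested regulators of Amh and inhibin transcription, 12 had the higher value in Ptbp1_cKO and 4 of them an unadjusted p under 0.05, with a median log2 fold change of 0.20. Over all tested genes, 50.9% had the higher value in Ptbp1_cKO and 4.38% were higher at that p. Sox9, a transcription factor that activates Amh in the fetal testis, had the smallest p, at 6.93 FPKM in Ptbp1_cKO and 5.33 FPKM in control. Its log2 fold change was 0.38 with p = 0.0019 and q = 0.0995 by Cuffdiff's test in the authors' deposited table. Many of these regulators mark Sertoli cells, so this list is not independent of the Sertoli cell list.

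**Figure D4:**
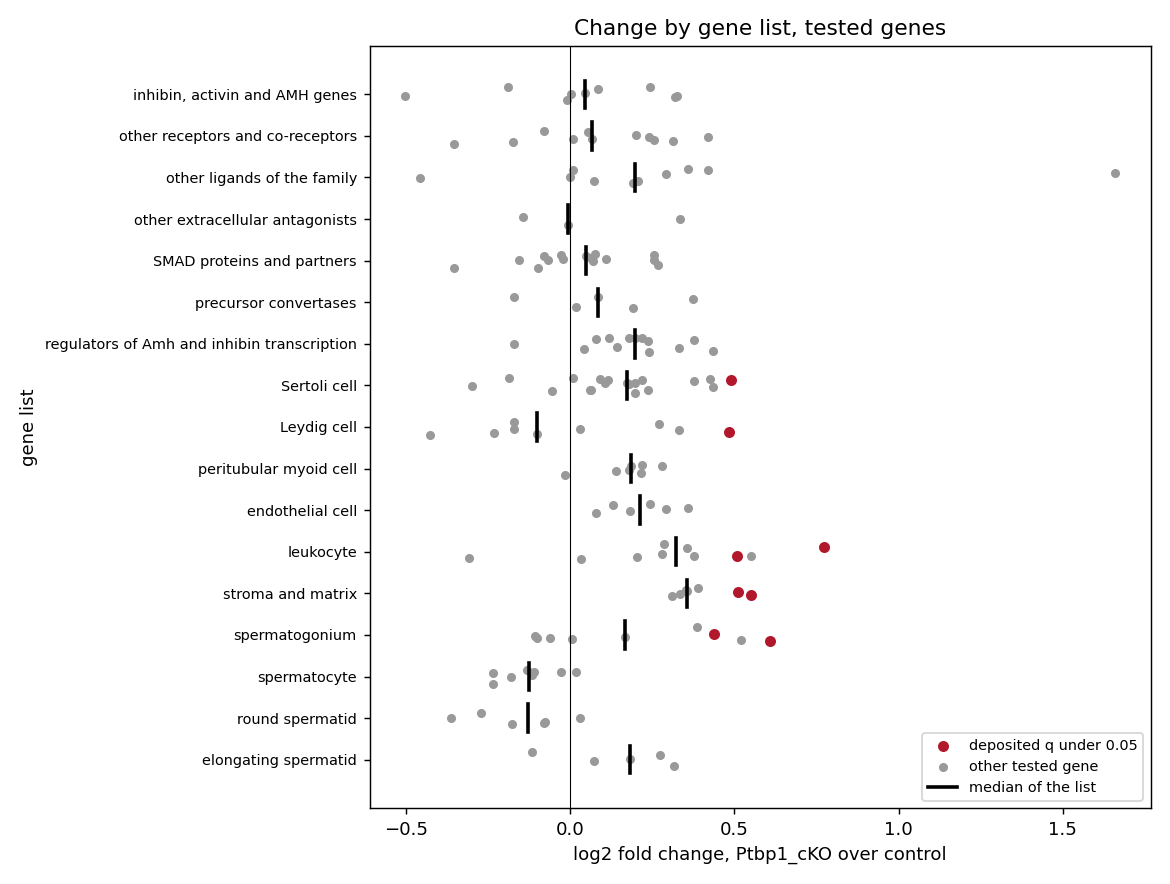
Log2 fold change of each tested gene, Ptbp1_cKO over control, by gene list, with the median of each list as a bar and genes at q under 0.05 in red; the epididymis list is not drawn. The 9 tested genes of the system have a median of 0.046 and no red point, and the Sertoli cell list has a median of 0.17 with 1 red point.

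The level of Sertoli cell genes stands beside these results, since Inha, Inhbb and Amh are made mainly in those cells. Of 19 Sertoli cell markers outside the system, 16 had the higher value in Ptbp1_cKO, against 50.9% of all tested genes. Past the threshold 1 rose, against 0.458% of all tested genes. This was the secreted chaperone gene Clu, at 1199 FPKM in Ptbp1_cKO and 853.6 FPKM in control (q = 0.00848 by Cuffdiff's test in the authors' deposited table). At an unadjusted p under 0.05 by Cuffdiff's test, 3 were higher and 1 lower, against 4.38% and 4.59% of all tested genes. The median log2 fold change of the 19 markers was 0.17. Their summed level was 2220 FPKM in Ptbp1_cKO and 1947 FPKM in control. Clu differed by more than this sum did, so the other markers together were lower in Ptbp1_cKO. The lower markers were Cst9, Cst12 and Ctsl, the last at 322.5 FPKM in Ptbp1_cKO and 396.6 FPKM in control. In whole testis more cells of a type and more RNA per cell cannot be told apart. Relative to the Sertoli cell median, the log2 fold change was 0.15 for Inha and 0.14 for Amhr2. It turned negative for Inhbb, Fstl3 and Acvr1b, at -0.13, -0.089 and -0.17. These signs depend on the centre chosen, and whether Fstl3 and Acvr1b are made in Sertoli cells was not tested.

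Markers of other cells moved as well, and their part in the result was not tested. Over all tested genes, 50.9% had the higher value in Ptbp1_cKO, and 0.458% rose and 0.703% fell past the threshold. At an unadjusted p under 0.05 by Cuffdiff's test the share was 8.98% in either direction. Of 9 Leydig cell markers 4 were higher and 5 lower, with a median log2 fold change of -0.10. Their summed level was 1452 FPKM in Ptbp1_cKO and 1185 FPKM in control. Insl3, a Leydig cell hormone, rose past the threshold, at 1049 FPKM in Ptbp1_cKO and 749.6 FPKM in control. Insl3 differed by more than the sum did, so the other Leydig cell markers together were lower in Ptbp1_cKO. All 7 stroma and matrix markers were higher, with 221.5 FPKM in Ptbp1_cKO and 174.4 FPKM in control, and Dcn and Col1a1, both matrix genes, rose past the threshold. Of 10 leukocyte markers 9 were higher, with 69.6 FPKM in Ptbp1_cKO and 54.8 FPKM in control, and C1qb and Fcer1g rose. The summed levels of 7 myoid markers were 227.6 FPKM in Ptbp1_cKO and 200.8 FPKM in control. Those of 6 endothelial markers were 11.8 FPKM in Ptbp1_cKO and 10.1 FPKM in control. Cuffdiff's test called 0 in each, and 0 and 1 had an unadjusted p under 0.05. At that p, 5 of the stroma and matrix markers were higher and 0 lower. The counts were 4 higher and 1 lower for leukocyte markers, and 3 higher and 1 lower for Leydig cell markers. Over all tested genes, 4.38% were higher and 4.59% lower at that p.

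Germ cell lists went both ways. The 8 spermatocyte markers summed to 833.9 FPKM in Ptbp1_cKO and 919.6 FPKM in control, and the 6 round spermatid markers to 1516 FPKM in Ptbp1_cKO and 1631 FPKM in control. The 5 elongating spermatid markers summed to 47987 FPKM in Ptbp1_cKO and 45362 FPKM in control. Cuffdiff's test called 0 in each of these 3 lists, against 1.16% of all tested genes. At an unadjusted p under 0.05 the counts were 0, 2 and 2, against 8.98% of all tested genes. The 2 round spermatid genes were lower, against 4.59% of all tested genes, and the 2 elongating spermatid genes higher, against 4.38%. Of 9 spermatogonial markers, 6 were higher, 3 of them at an unadjusted p under 0.05 by Cuffdiff's test, against 4.38% of all tested genes. Kit and Uchl1 rose past the threshold, against 0.458% of all tested genes. The summed level of the 9 markers was 1282 FPKM in Ptbp1_cKO and 1359 FPKM in control. Most of this sum was Dmrtb1, at 1191 FPKM in Ptbp1_cKO and 1284 FPKM in control. The next marker, Uchl1, had 54.7 FPKM in Ptbp1_cKO and 40.3 FPKM in control. The sum thus mainly follows Dmrtb1, and whether spermatogonia are the source of that level was not tested. Dmrtb1 fell by more than the sum did, so the other spermatogonial markers together were higher in Ptbp1_cKO. Of 5 epididymis markers, Crisp1 rose past the threshold, 2 were listed at 0 in both groups, and the sum was 6.24 FPKM in Ptbp1_cKO and 0.0496 FPKM in control.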

How the data were processed

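Per the labels' protocols, polyadenylated testis RNA was made into 6 stranded libraries, 3 Ptbp1_cKO and 3 control, and groups follow the titles. Tools listed in the submitters' processing notes, without roles, are bcl2fastq 2.20, Trimmomatic 0.38, STAR 2.6.1d, Cufflinks and Cuffdiff, with build mm10. How libraries were normalised, whether strand was used and which annotation served are details not given in the sources used here. As FPKM, the authors deposited 1 value per group and gene, beside the log2 fold change with Ptbp1_cKO on top, a signed test score, and a p-value and q-value. Single libraries were not analysed here. Whether the libraries of a group stem from different animals is not given, so p-values are taken to speak for these libraries only.

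Calls are those of Cuffdiff at q under 0.05, over 22048 tested genes. The implied error is the log2 fold change divided by the statistic. Intervals drawn from it assume a normal distribution of the statistic, which the deposited p-values do not follow. Fragments were estimated from steps of low values in single-exon genes of 1500 to 6000 bp (100% of 272 values in Ptbp1_cKO and of 250 in control lay within 1% of a step) for the longest coding transcript, and cover counting error only; 3 fragments in a library equal at most 0.0127 FPKM for any member. Members and lists were chosen with earlier results of these data known. Named are all members, called genes, the smallest p of each pathway list, and the 3 genes nearest to the member with the smallest p, without predicted genes. Bmp4, Acvr1, the SMAD genes of activin signalling and neighbours in the genome were named outside this rule. So were the markers Ctsl, Cst9, Cst12 and Dmrtb1, after their values were seen. Positions come from GENCODE M21 (mm10), which held 98.6% of the deposited identifiers. Adjustment and steps were tested on simulated data, with pandas 2.3.3, numpy 2.4.6, scipy 1.17.1 and matplotlib 3.10.9.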

Additional observations from a re-analysis of the deposited data

How the results depend on the processing

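The count of 0 of 9 tested members past the threshold stayed at 0 at q under 0.1. It was also 0 over the tested genes that reached 1 FPKM in either group. That filter left 6 members and dropped Amh, Fst and Acvr2b. With p from the statistic under a normal distribution the count was 0 too. That p was larger than the deposited p for each of the 9, so this setting was only a stricter one. At q under 0.1 the count of other pathway genes was 1 (Sox9) in place of 0, and that of Sertoli markers 2 in place of 1; with the normal p no Sertoli marker passed (0). The median difference of log2(FPKM + 1) over the members was 0.053. It ranged from 0.053 to 0.064 with a pseudocount of 0.1, without the filter, with a filter at FPKM 1 and centred on tested genes. The filter at FPKM 1 kept 6 of the 10 members. The median was -0.072 when centred on the Sertoli cell list. That centring also turned Inhbb to -0.13, Fstl3 to -0.089 and Acvr1b to -0.17, because the list's own median of 0.17 is subtracted; no other member changed sign. The log2(FPKM + 1) scale gave 0.067 for Inhba in place of 0.67, since a pseudocount shrinks low genes. No paired analysis was possible because the deposited table holds 1 value per group, and for the same reason no replicate could be left out. Estimated fragments were fewest for Inhba, Amh, Fst and Acvr2b, at between 119 and 557 per group. For Amh, Fst and Acvr2b the counting errors of 0.15, 0.098 and 0.10 were still well below the implied errors of 0.43, 0.67 and 0.50.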

Other observations

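The largest fold change among the 57 tested genes of the wider pathway belonged to Bmp4, a bone morphogenetic protein, and was chosen after its value was seen. Bmp4 had 1.965 FPKM in Ptbp1_cKO and 0.622 FPKM in control, 3.16 times the control level. Its log2 fold change of 1.66 had a wide implied error of 1.36. With p = 0.0555 and q = 0.576 by Cuffdiff's test in the authors' deposited table, Bmp4 did not pass the threshold.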
